A study of Rattus norvegicus with 47 samples.

Results

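Preneoplastic foci of the rat liver were compared with the liver around them. Foci are small groups of altered hepatocytes that appear after exposure to a carcinogen and are counted as the earliest lesions on the way to liver tumours. The comparison used 13 of the 47 arrays of the study: 9 foci, chosen by their group label, and 4 samples of surrounding liver, chosen by a source name that gives surrounding tissue in formalin-fixed, paraffin-embedded (FFPE) form. The array titled as normal liver was left out of the surrounding group.

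All samples came from male Wistar rats. Per the labels, every rat received N-nitrosomorpholine, a nitrosamine that damages liver DNA and starts lesions, as a single dose of 250 mg/kg, at 4 weeks of age in the study's design text. After 3 weeks without treatment the rats drank phenobarbital, a sedative that activates the nuclear receptor CAR and promotes the growth of such lesions, at a daily 50 mg/kg, over a span that reached 17 months. The surrounding liver carries the same exposures as the foci, so no difference reported here compares treated with untreated liver. The foci were 3 lesions each from animals 10, 18 and 7, and the surrounding liver was 1 sample each from animals 10, 14, 18 and 7. The fixed tissue was captured with a laser under the microscope, its RNA was hybridised to Affymetrix rat 230 arrays of 1 colour, and whether a captured sample pooled several sections is not given in the labels.

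A large share of the results below concerns genes that the transcription factor NRF2 controls. NRF2, encoded by Nfe2l2, is bound by Keap1 in resting cells and degraded. Reactive molecules modify Keap1, NRF2 then accumulates, pairs with a small Maf protein and binds antioxidant response elements near genes for glutathione synthesis, conjugation, carbonyl reduction and NADPH supply. In hepatocytes these genes detoxify drugs and reactive metabolites, and in rats the placental form of glutathione transferase, Gstp1, has long been used to stain foci in tissue sections. Other results concern the division of labour along the liver lobule, where hepatocytes near the portal vein make glucose and urea and those near the central vein hold glutamine and drug metabolism, and the male pattern of liver genes, which follows the pulses of growth hormone.

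Values are log2 probe set values as deposited, and a difference of 1 is a 2-fold difference. A change is the log2 difference of foci minus surrounding liver ± its standard error, from a linear model (limma) with the animal as a term. The 5 adenomas of the same fixation entered that model for the estimate of the spread and the animal terms. The surrounding array of animal 14, which has no foci, enters the comparison through the adenomas of its animal. A gene is said to have risen or fallen where its p, adjusted by Benjamini-Hochberg across 14217 genes, was under 0.05. Array medians lay between 5.59 and 5.68 in foci and between 5.60 and 5.67 in surrounding liver. Pairs of foci of 1 animal correlated at 0.938 to 0.962 and pairs from different animals at 0.930 to 0.952. The precision is set by the number of arrays and animals, as an array does not count molecules.

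In foci 258 genes rose (1.81% of those tested) and 194 fell (1.36%), of which 171 and 91 moved at least 2-fold. The median change over all genes was -0.02. Of the genes that rose, 255 were higher in the foci of all 3 animals with both tissues than in the surrounding liver of the same animal, and 192 of the genes that fell were lower in all 3. All 9 foci lay above all 4 surrounding arrays in 171 genes (1.2%) and below them in 172 (1.21%). The surrounding arrays decide much of the count. Without the surrounding array of animal 10, 18 or 7, the total of 452 called genes (3.18%) became 250, 248 or 245, while it stayed between 359 and 488 without any other single array of the fit.

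The labelled lesions were checked with 4 markers. Gstp1 read 12.17, 9.33, 7.15 and 8.86 in the surrounding liver of animals 10, 14, 18 and 7, and from 13.67 to 13.89 with a median of 13.79 in the foci. All foci were above all surrounding samples, with an SD of 0.07 in the foci (n = 9) and 2.08 in the surrounding samples (n = 4). Its change was 4.44 ± 0.40, or 21.7-fold, with an adjusted p of 2.5e-08. The foci values are among the highest given here, as are those of Gstm1, at 14.25 to 14.39 in the foci (SD 0.05). Whether values at this level are compressed was not tested, so the small SD in the foci and the size of the Gstp1 change are uncertain. Because the surrounding liver of animal 10 was high, the difference within an animal was 1.62 in animal 10 against 4.96 in animal 7 and 6.58 in animal 18. The standard error pools all arrays of the fit and does not give this spread between animals.

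Ggt1, the gamma-glutamyl transferase that starts the breakdown of extracellular glutathione, read 7.62, 7.17, 7.05 and 7.09 in the same 4 surrounding samples. In the foci it ran from 8.68 to 10.33 with a median of 9.84. No foci array overlapped with surrounding liver, the change was 2.43 ± 0.24 (5.39-fold, adjusted p = 9.48e-08), and the differences within animals were alike, at 2.29, 2.42 and 2.85. Akr1b8, an aldo-keto reductase that reduces lipid aldehydes, read 9.82, 6.94, 6.27 and 6.38 in surrounding liver and 11.76 to 12.55 in the foci, with a median of 12.07. Its change of 4.68 ± 0.34 (25.7-fold, adjusted p = 8.81e-10) again held a smaller difference in animal 10 (2.40) than in animals 7 (5.83) and 18 (5.64). Defb1, a beta-defensin that kills bacteria, had the largest rise of all genes that moved the same way in the 3 animals. It read 6.21, 5.01, 4.74 and 5.17 in surrounding liver and 8.79 to 11.49 in the foci, median 9.92, a change of 4.87 ± 0.37 (adjusted p = 1.73e-09). The surrounding values lie near or below the medians of those arrays (5.60 to 5.67) and are not shown to be above background, so the size of this change is uncertain, as it is for other genes with a group at such levels. Akr1b8 and Defb1 were proposed as markers from these arrays, so their rise is no independent check of the labels, whereas Gstp1 and Ggt1 are the classical ones.

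**Figure D1:**
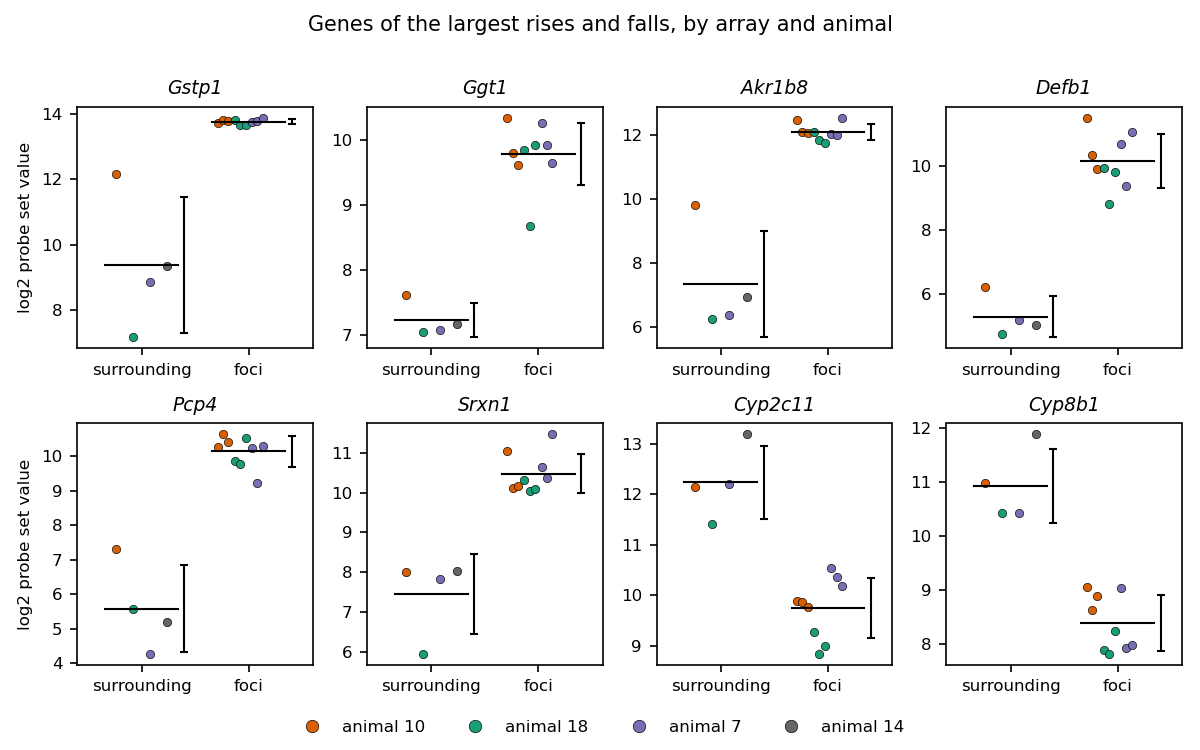
Log2 probe set values of 8 genes in the 4 surrounding arrays and 9 foci, coloured by animal, with the group mean (line) and SD (bar). Gstp1 lies between 13.67 and 13.89 in all foci, and the surrounding array of animal 10 (orange) is the highest of its group for Gstp1, Ggt1, Akr1b8, Defb1 and Pcp4.

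The other genes among the 15 largest rises serve several functions. Pcp4, a small protein that binds calmodulin, read 7.30, 5.21, 5.56 and 4.27 in the surrounding liver of animals 10, 14, 18 and 7 and 9.24 to 10.63 in the foci (median 10.26), with a change of 4.65 ± 0.31 (adjusted p = 1.89e-10). Mmd, a membrane protein first described in maturing macrophages, read 4.83, 4.33, 3.66 and 3.29 against 6.25 to 8.06 (median 7.67), a change of 3.77 ± 0.29. For both genes the lowest of the foci was above the highest surrounding sample, although the distance was shorter for Mmd. Ddit4l, an inhibitor of the growth kinase mTOR, changed by 2.62 ± 0.30, from 4.31 to 6.16 in surrounding liver to 6.90 to 8.59 in foci. Ccdc92 changed by 2.99 ± 0.47 without overlap. Dnaaf1, which helps to assemble the motors of cilia, changed by 3.14 ± 0.49, but the groups overlapped, since the foci ran from 6.01 to 10.34 and the surrounding liver of animal 10 read 6.93. The surrounding array of animal 10 was the highest of the 4 for 9 of these 15 genes. Over all 258 genes that rose it was the highest in 28.68%, and that of animal 14 in 43.02%. Over all genes tested these shares were 21.14% and 30.53%. Among 19 foci and oncofetal markers 6 rose, the 4 above, Anxa2 and the transcription factor Sox4, and 1 fell, the cadherin Cdh17. Over all genes 1.81% rose and 1.36% fell.

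NRF2 targets rose as a broad group. Of 46 measured genes of the 6 target lists (55 listed), 28 rose and none fell, against 1.81% and 1.36% of all genes, and the median change was 0.87 against -0.02. The measured members were all tested, with no filter on low values. In 24 of the 46 all foci were above all surrounding samples, against 1.2% of all genes. The mean deviation of these genes from their average over the arrays lay between 0.12 and 0.53 in the 9 foci and between -1.01 and -0.47 in the 4 surrounding arrays. The median within animals was 0.71 in animal 10, 0.97 in animal 18 and 0.69 in animal 7. Leaving out any single array kept the count of rises between 25 and 29, with 0 falls each time (0 lower also at an unadjusted p under 0.05 in limma with all arrays). The lists were chosen with results of these arrays known, so the counts describe them and are not independent evidence.

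The antioxidant response element was looked for in the promoters as its core TGACNNNGC, on both strands, in the 250 bases before the gene start in RefSeq's promoter table for the GRCr8 build of the rat genome. Of the 39 measured targets with a promoter there, 7 held the core, and of the 24 that rose 6 did (25%), against 12.3% of the 11700 tested genes and 10.2% of all 27457 promoters. Among the genes that rose 14.9% held it and among those that fell 11.7%. The 6 stretches are shown because they are the members that rose and hold this core. Capitals mark the match, each sequence is written 5′ to 3′ on the strand of its gene, and a match is a description of letters and not of binding.
Gstp1, chr1:210769723-210769801, minus strand: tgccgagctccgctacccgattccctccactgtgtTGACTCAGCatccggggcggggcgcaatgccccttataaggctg
Me1, chr8:96540368-96540446, minus strand: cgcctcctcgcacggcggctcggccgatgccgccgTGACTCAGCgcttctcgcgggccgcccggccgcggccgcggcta
Gsta3, chr9:31154937-31154988, plus strand: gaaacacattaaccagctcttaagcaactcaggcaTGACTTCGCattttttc
Gclm, chr2:213031928-213032006, plus strand: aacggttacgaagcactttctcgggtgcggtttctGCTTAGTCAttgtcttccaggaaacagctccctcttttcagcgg
Gpx2, chr6:101230034-101230081, minus strand: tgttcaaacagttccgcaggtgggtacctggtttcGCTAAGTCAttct
Ugdh, chr14:43202276-43202354, plus strand: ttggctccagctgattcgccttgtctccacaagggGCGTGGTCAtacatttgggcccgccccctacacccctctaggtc
In Gstp1, Me1 and Gsta3 the core reads on the gene's own strand and in Gclm, Gpx2 and Ugdh on the other. The match begins 61 bases before the start of Gstp1, 167 before Me1, 17 before Gsta3, 172 before Gclm, 13 before Gpx2 and 207 before Ugdh. The Gstp1 and Me1 matches are the same 9 letters.

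Of 9 measured regulators of the pathway 1 rose, Maff, and none fell (0 lower at an unadjusted p under 0.05 in limma). Maff, a small Maf protein that pairs with NRF2, read 6.05, 6.21, 6.16 and 5.28 in the surrounding liver of animals 10, 14, 18 and 7 and 7.80 to 9.83 in the foci (median 8.40), a change of 2.67 ± 0.30 (6.39-fold, adjusted p = 1.66e-06) without overlap. Its relatives Mafg and Mafk were not called, at 0.29 ± 0.26 (adjusted p = 0.711) and 0.09 ± 0.25 (adjusted p = 0.93). Nfe2l2 itself had a change of -0.50 ± 0.25 (adjusted p = 0.395) and Keap1 one of 0.23 ± 0.23 (adjusted p = 0.753). Sqstm1, an adaptor that draws Keap1 into degradation, had 0.35 ± 0.14 (adjusted p = 0.232). Probe sets of Keap1, Mafg and Nfe2l1 disagreed in sign within each gene, and none passed.

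Glutathione genes rose in 5 of 9 with a median change of 1.21. Gclc, the catalytic subunit of the rate-limiting enzyme of glutathione synthesis, read 10.73, 11.38, 10.65 and 10.60 in surrounding liver and 12.14 to 12.91 in the foci (median 12.53). Its change of 1.89 ± 0.15 (3.70-fold, adjusted p = 4.93e-09) was nearly the same within each animal, at 1.90, 1.87 and 1.85. Its partner Gclm changed by 1.35 ± 0.19 and glutathione reductase, Gsr, by 1.21 ± 0.14, both without overlap. Gpx2, a peroxidase known from the gut epithelium, read 4.72, 6.79, 7.68 and 7.02 against 8.08 to 10.34 (median 9.63), a change of 2.62 ± 0.34 in which the surrounding liver of animal 10 was the lowest sample. Slc7a11, the cystine importer, varied most of these genes among foci, from 5.11 to 8.77, overlapped with surrounding liver and changed by 2.25 ± 0.53 (adjusted p = 0.0136). Without the surrounding array of animal 10 or 14 it did not pass (highest adjusted p = 0.0855). Gss, the enzyme that follows Gclc, had a change of 0.56 ± 0.21 (adjusted p = 0.182), and Gpx1, the main cytosolic peroxidase, which is in no list and was picked after its values were seen, fell by 0.68 ± 0.15 (adjusted p = 0.0067, and 0.0869 without the surrounding array of animal 10).

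Of 5 thiol repair genes 3 rose. Srxn1, which restores overoxidized peroxiredoxins, read 8.02, 8.05, 5.96 and 7.83 in the surrounding liver of animals 10, 14, 18 and 7 and 10.03 to 11.45 in the foci (median 10.31), with a change of 3.26 ± 0.25 (9.57-fold, adjusted p = 1.8e-09). Of its 3 probe sets 2 were called and the third had a change of -0.33. Txnrd1, the reductase of thioredoxin, changed by 1.47 ± 0.17, without overlap. Thioredoxin itself, Txn1, changed by 0.41 ± 0.11 with overlap (adjusted p = 0.0441) and did not pass in 11 of the 18 fits that left out 1 array.

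Enzymes that reduce quinones and carbonyls rose in 6 of 10 (median 1.26). Beside Akr1b8, Akr7a3, a reductase that detoxifies aflatoxin aldehyde, read 11.31, 10.86, 10.07 and 10.15 in surrounding liver and 12.71 to 13.31 in the foci (median 13.01), a change of 2.40 ± 0.15 (5.28-fold, adjusted p = 6.14e-11). Ptgr1, which reduces reactive alkenals and prostaglandins, changed by 2.41 ± 0.21 (5.32-fold) and the quinone reductase Nqo1 by 1.62 ± 0.23 (3.07-fold). For these 3 genes the groups did not overlap. Aldh1a1 rose by 0.91 ± 0.14, with the surrounding sample of animal 14 (12.53) inside the range of the foci. Akr1a1 rose by 0.53 ± 0.11 and did not pass without the surrounding array of animal 7 (adjusted p = 0.0522). Aldh3a1, an aldehyde dehydrogenase, had a large but uneven change of 2.60 ± 0.81 (adjusted p = 0.0839), with a difference of 4.20 in animal 7, 0.42 in animal 10 and 1.19 in animal 18.

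NADPH supply rose in 4 of 5 members. Pgd and Taldo1 of the pentose phosphate pathway changed by 1.49 ± 0.20 and 1.45 ± 0.24, Tkt of the same pathway by 1.10 ± 0.16 and malic enzyme, Me1, by 1.28 ± 0.19. Me1 read 9.52, 10.06, 9.19 and 9.61 in surrounding liver and 10.23 to 11.44 in the foci, and none of the 4 genes overlapped between the groups. Idh1, the remaining member, had a change of 0.11 ± 0.13 (adjusted p = 0.804).

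Conjugation enzymes rose in 8 of 12 (median 0.93). After Gstp1 the largest change was that of Ugdh, which makes the sugar donor for glucuronidation. It read 10.46, 10.36, 9.89 and 10.28 in surrounding liver and 11.71 to 12.31 in the foci (median 12.00), a change of 1.82 ± 0.15 (adjusted p = 4.93e-09). The glutathione transferases Gsta4, Gsta3, Gstm4 and Gstm1 rose by 1.37 ± 0.13, 1.07 ± 0.27, 1.02 ± 0.16 and 0.49 ± 0.06. Gsta3 did not pass without the surrounding array of animal 18 or 7 (highest adjusted p = 0.324). Gstm3 had a change of -0.18 ± 0.43 and Gstm2 one of 0.25 ± 0.10, neither called, so the transferase family did not move as a block, and transcripts of near-identical transferases could bind the same probes. The microsomal epoxide hydrolase Ephx1 rose by 0.84 ± 0.09.

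Export and iron genes rose in 2 of 5. The canalicular pump Abcc2 changed by 0.81 ± 0.11 and the basolateral pump Abcc3 by 0.63 ± 0.15, both with overlap, and Abcc3 did not pass without the surrounding array of animal 18 (adjusted p = 0.183). Hmox1, the haem oxygenase often used as a readout of NRF2, read 8.32, 7.64, 6.44 and 9.76 in the surrounding liver of animals 10, 14, 18 and 7 and 6.65 to 9.79 in the foci. Within animals 10, 18 and 7 the foci differed from surrounding liver by -0.07, 0.44 and -0.15, and the change was 0.11 ± 0.22 (adjusted p = 0.895). The pump Abcc1 and the iron exporter Slc40a1, in no list and picked after their values were seen, rose by 1.75 ± 0.31 and 1.39 ± 0.22 without overlap.

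**Figure D2:**
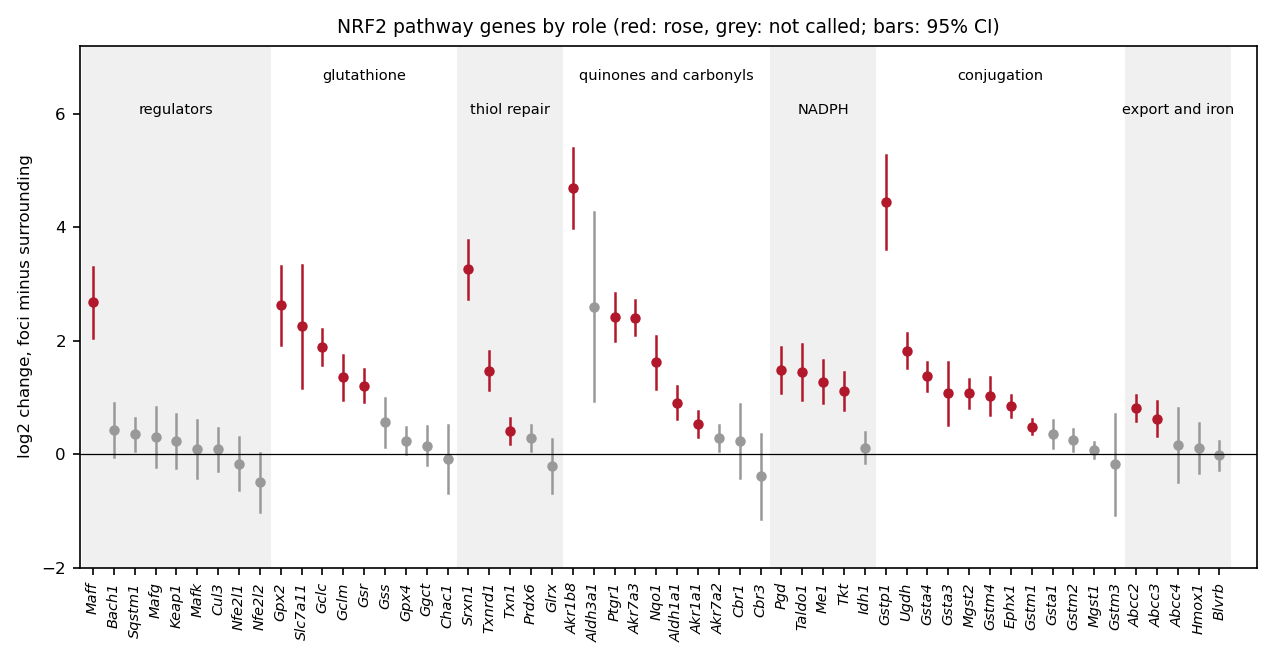
Log2 change of each measured NRF2 pathway gene in foci against surrounding liver, grouped by role, with the 95% confidence interval of the fit (red, rose; grey, not called). Among the regulators only Maff is called, and 28 of the 46 targets in the other 6 roles rose.

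Phenobarbital-responsive genes, which the receptors CAR and PXR control, were measured against a background in which the surrounding liver had the drug as well. Of 22 measured, 6 rose and 1 fell, against 1.81% and 1.36% of all genes, with a median of 0.16. Without the surrounding array of animal 10, foci replicate 8 or adenoma replicate 5, the falls were 2, 2 or 3. Aldh1a1, Ephx1, Gstm1, Abcc2 and Abcc3 are also on the NRF2 lists. The remaining one, Nr1i3, encodes CAR itself and changed by 0.72 ± 0.17 (adjusted p = 0.0155, and 0.138 without the surrounding array of animal 18). Cyp2c7 fell by 0.72 ± 0.13, from 13.81, 13.77, 13.64 and 13.76 in the surrounding samples to 12.21 to 13.38 in the foci.

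Of 9 measured genes of the aryl hydrocarbon receptor battery, which metabolises drugs, 1 rose and 1 fell (median 0.17), against 1.81% and 1.36% of all genes. Without the surrounding array of animal 10 or without foci replicate 5, 2 rose. Nqo1 rose, as given above, and Cyp1a2 fell by 2.31 ± 0.44 (4.97-fold, adjusted p = 0.0016). Cyp1a2 read 12.14, 11.22, 9.47 and 11.14 in the surrounding liver of animals 10, 14, 18 and 7 and 5.64 to 10.47 in the foci (median 9.16). The groups overlapped because surrounding liver of animal 18 was low, but within every animal the foci were lower, by 1.89 to 3.01. The other 7 measured members did not pass, among them Aldh3a1 with 2.60 (adjusted p = 0.0839), Cyp1a1 with 0.44 and Ahr with 0.17. At an unadjusted p under 0.05 in limma 2 of the 9 were higher and 2 lower. Of 12 sulfotransferases and UDP-glucuronosyltransferases 2 rose and 2 fell (median -0.19). Sult1c3 and the oestrogen sulfotransferase Sult1e1 fell by 2.22 ± 0.39 and 1.71 ± 0.40, while Sult1b1, which handles thyroid hormone and phenols, rose by 0.58 ± 0.12. Ugt2b7 also rose, by 2.33 ± 0.61 with overlap (adjusted p = 0.0288). Its differences within animals 10, 18 and 7 were 4.25, 0.11 and 2.68, and it lost its call in 5 of the 18 fits that left out 1 array. Sult1e1 did not pass without the surrounding array of animal 10, 18 or 7 (highest adjusted p = 0.147), and Sult1b1 not without that of animal 18 (adjusted p = 0.0723).

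Genes of both lobule zones were lower in foci. Of 21 periportal genes 10 fell and none rose (median -0.71), and of 17 pericentral genes and Wnt targets 5 fell and none rose (median -0.72). At an unadjusted p under 0.05 in limma 16 and 11 were lower and 0 higher, where 1895 of all 14217 genes passed. Over all genes 1.36% fell and 1.81% rose. Without the surrounding array of animal 18, 6 periportal and 3 pericentral genes fell, and without that of animal 7 the pericentral count was also 3. Sds, a serine-degrading enzyme of the periportal zone, read 10.22, 10.78, 10.75 and 10.45 in the surrounding liver of animals 10, 14, 18 and 7 and 6.38 to 9.52 in the foci (median 8.17). All foci were lower, and the change was -2.23 ± 0.48 (4.68-fold, adjusted p = 0.00728, and 0.139 without the surrounding array of animal 18). Pck1, the gluconeogenic gate enzyme, read 12.51, 12.92, 12.60 and 12.50 in the surrounding samples and 9.81 to 11.87 in the foci, a change of -1.58 ± 0.29 (adjusted p = 0.00131). The urea cycle enzymes Asl and Ass1, named after their values were seen, had changes of -0.97 and -0.69. They were not followed singly in the fits that left out 1 array. Gls2, which releases ammonia from glutamine, had a change of -1.32 ± 0.23. On the pericentral side, Slc1a2, a glutamate importer, read 8.17, 7.86, 7.62 and 8.70 in surrounding liver and 5.11 to 6.47 in the foci, a change of -2.26 ± 0.40 (4.79-fold, adjusted p = 0.000842). Oat, which turns ornithine towards glutamate, was 3.99-fold lower (adjusted p = 0.00245) and Cyp2e1 changed by -1.03 ± 0.23, but Cyp2e1 did not pass without the surrounding array of animal 18 or 7 (highest adjusted p = 0.0871).

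Methionine and cysteine metabolism was read from genes picked after their values were seen. Cbs and Cth, the 2 steps that carry sulphur from homocysteine to cysteine, fell by 1.48 ± 0.37 and 0.97 ± 0.18, and Cdo1, which oxidizes cysteine away, fell by 0.61 ± 0.11. In all 3 genes every lesion lay below every surrounding sample. Gnmt, a methyl sink of the periportal list, changed by -1.34 ± 0.22 (adjusted p = 0.000442). Mat1a, the adult liver's methionine adenosyltransferase, fell by 0.43 ± 0.11, while Mat2a, the form of dividing and fetal cells, rose by 0.94 ± 0.26 with overlap (adjusted p = 0.0422). Cbs and Mat1a did not pass without the surrounding array of animal 10, 18 or 7, and Mat2a did not pass in 11 of the 18 fits that left out 1 array. Serine synthesis had Psat1 higher by 1.71 ± 0.41, and the serine and alanine carrier Slc1a4 was higher by 1.83 ± 0.38. Neither passed without the surrounding array of animal 7 (adjusted p = 0.17 and 0.0571).

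Bile acid genes fell in 6 of 17 (median -0.64) and none rose, against 1.36% and 1.81% of all genes. At an unadjusted p under 0.05 in limma 12 were lower and 1 higher, where 1895 of all 14217 genes passed. Cyp8b1, which directs synthesis to cholic acid, read 10.98, 11.88, 10.43 and 10.42 in surrounding liver and 7.82 to 9.07 in the foci (median 8.24), and its change of -2.17 ± 0.40 (4.49-fold, adjusted p = 0.00134) was alike in the 3 animals, at -2.10, -2.12 and -2.44. Slc27a5, which activates bile acids for conjugation, changed by -1.85 ± 0.32 with overlap. The uptake carrier Slc10a1 read 11.28, 11.94, 10.84 and 10.86 against 9.72 to 10.72, a change of -0.81 ± 0.19. It did not pass without the surrounding array of animal 10 or 7 (highest adjusted p = 0.115). Without those arrays the list had 3 and 2 falls.

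Male-predominant genes, which depend on pulses of growth hormone, had the lowest median of the 37 lists. Of 17 measured 10 fell and 1 rose, against 1.36% and 1.81% of all genes, and the median change was -1.04. The 1 that rose, the dehydrogenase gene Dhrs7, overlapped between groups (adjusted p = 0.0298) and lost its call in 6 of the 18 fits that left out 1 array, in which the list had 0 to 2 rises. Cyp2c11, the main male cytochrome, read 12.15, 13.19, 11.42 and 12.20 in the surrounding liver of animals 10, 14, 18 and 7 and 8.84 to 10.53 in the foci (median 9.87). The groups lay apart, the change was -2.10 ± 0.25 (4.28-fold, adjusted p = 4.53e-06), and the within-animal differences were -2.30, -2.39 and -1.84. Car3, the muscle and liver carbonic anhydrase, read 8.96, 12.06, 9.62 and 8.69 against 5.26 to 7.39, a change of -2.38 ± 0.39, with the surrounding liver of animal 14 far above the other 3. The vasopressin receptor Avpr1a changed by -2.19 ± 0.45 and the methyltransferase Inmt by -2.11 ± 0.37. The largest change of the list, that of Dhrs7l1 (-2.51 ± 0.62, adjusted p = 0.0204), did not pass without the surrounding array of animal 14, 18 or 7, and Avpr1a did not without that of animal 7 (adjusted p = 0.0771). Igf1, the growth hormone effector, fell by 0.75 ± 0.21 and lost its call in 11 of the 18 fits that left out 1 array. Without the surrounding array of animal 10, 18 or 7 the list had 5, 4 or 3 falls.

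Cyp2c12, the female counterpart of Cyp2c11, was picked after its values were seen. It read 11.79, 8.21, 7.53 and 11.82 in the surrounding liver of animals 10, 14, 18 and 7 and 10.35 to 12.59 in the foci. The change of 1.92 ± 0.47 (adjusted p = 0.0194) came mostly from animal 18, with a within-animal difference of 3.66 against 0.17 and 0.59, and it did not pass without the surrounding array of animal 14 or 18 (highest adjusted p = 0.362). Socs2, a feedback inhibitor that growth hormone induces, fell by 1.19 ± 0.27, but not without the surrounding array of animal 10, 18 or 7 (highest adjusted p = 0.0774).

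Of 17 fatty acid oxidation and ketone genes 3 fell, where 1.36% of all genes did. Among the 3 was Cpt1a, the gate of mitochondrial import, which fell by 1.02 ± 0.19. The median of that list was -0.41, 16 of the 17 changes were below 0, and 6 were lower and 0 higher at an unadjusted p under 0.05 in limma. Of 15 genes of cholesterol synthesis and uptake 1 fell, Sc5d, with a median of -0.41, 14 changes below 0, and again 6 lower and 0 higher at the unadjusted p. Of 19 genes of fatty acid synthesis and storage 1 fell, Lpin1, with a median of -0.16 and 13 changes below 0. Lpin1 and Sc5d each lost the call in 4 of the 18 fits that left out 1 array, and the cholesterol list had 0 to 3 falls in those fits. The fatty acid carrier Cd36, picked after its values were seen, rose by 1.52 ± 0.32 with overlap, and not without the surrounding array of animal 10 or 18 (highest adjusted p = 0.117). Of 17 glycolysis genes 0 were called by limma, 2 were higher and 0 lower at an unadjusted p under 0.05, and changes ran from -0.59 to 0.69.

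Of 19 acute phase and complement genes 8 fell, against 1.36% of all genes. All 19 changes were below 0 and the median was -0.38. Complement component C6 read 9.71, 10.22, 9.91 and 10.74 in surrounding liver and 6.14 to 9.16 in the foci (median 8.53), a change of -1.99 ± 0.27 (3.96-fold, adjusted p = 3.39e-05) without overlap. C5 and Itih3 had smaller changes, -0.72 ± 0.13 and -0.71 ± 0.13. Without the surrounding array of animal 10 or of animal 7 the list had 3 falls. Of 16 hepatocyte transcription factors 3 fell, Onecut1 by 1.11 ± 0.25, Foxa3 by 0.97 ± 0.26 and Klf15 by 0.74 ± 0.17. Foxa3 lost its call in 8 of the 18 fits that left out 1 array, and of the 16 genes 1 and 0 fell without the surrounding array of animal 18 and animal 7.

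**Figure D3:**
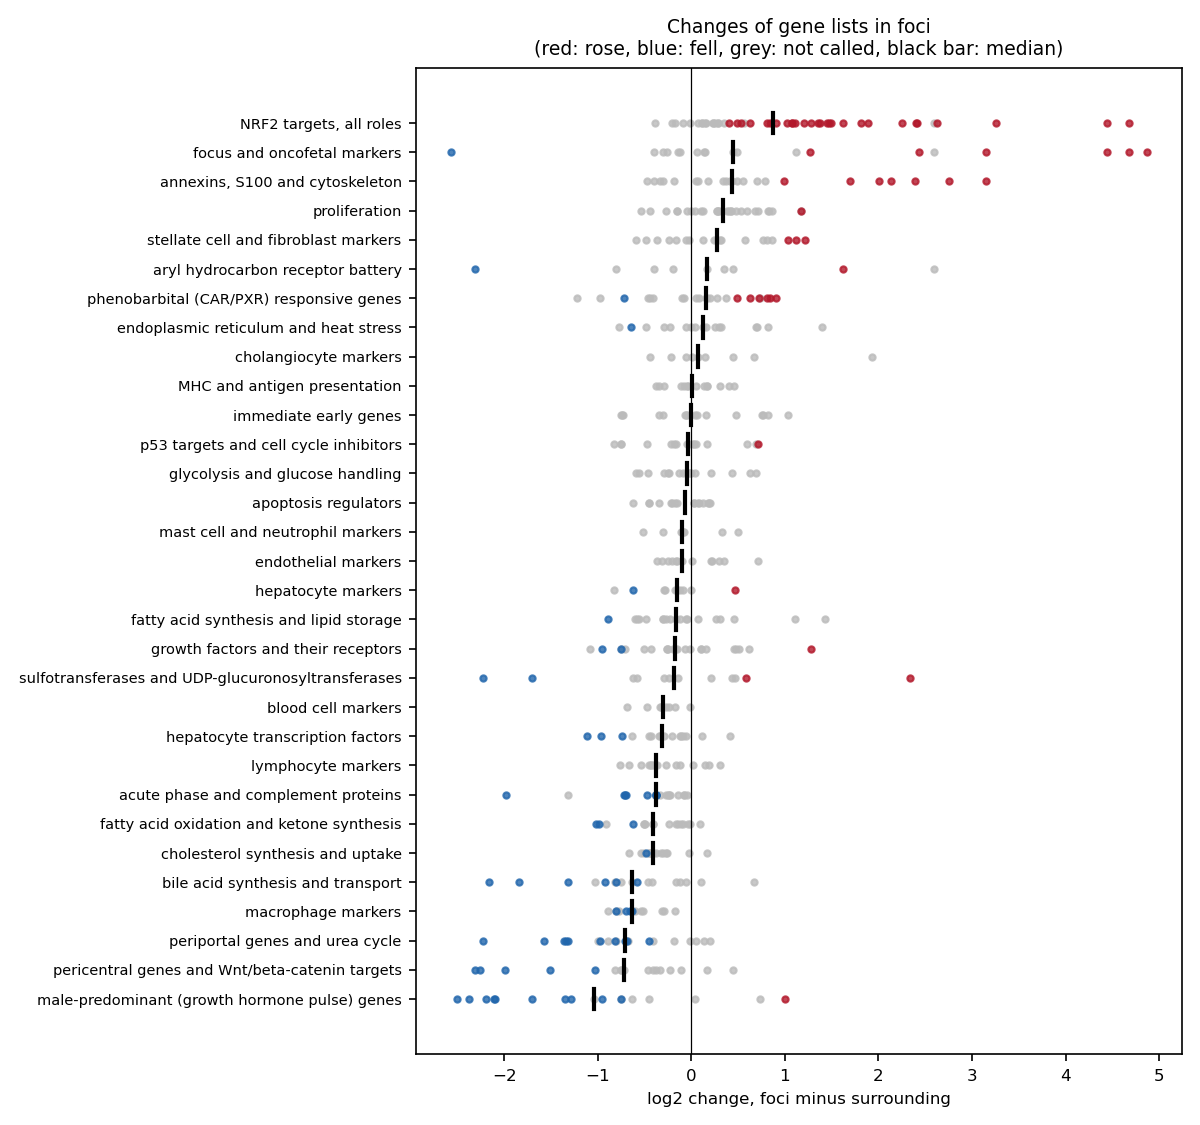
Log2 change of every measured gene of 31 lists in foci against surrounding liver, ordered by the median of the list (black bar), with genes that rose in red, that fell in blue and not called in grey. NRF2 targets have the highest median (0.87) and male-predominant genes the lowest (-1.04).

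Proliferation genes were mostly not called, and over all genes 1.81% rose and 1.36% fell. Of 28 measured 1 rose (2 without foci replicate 6), Pcna, the sliding clamp of DNA replication, which read 7.58, 8.10, 6.91 and 6.42 in the surrounding liver of animals 10, 14, 18 and 7 and 7.64 to 8.85 in the foci. The groups overlapped, and the change of 1.17 ± 0.27 (adjusted p = 0.012) did not pass without the surrounding array of animal 18 or 7 (highest adjusted p = 0.16). The median of the list was 0.34, 7 genes were higher and 0 lower at an unadjusted p under 0.05, and the cyclin Ccnd1 had a change of 1.17 that missed the threshold (adjusted p = 0.0893). Of 16 p53 targets and cell cycle inhibitors 1 rose, Mdm2, the ligase that degrades p53, by 0.71 ± 0.19, which was lost in 10 of the 18 fits without 1 array. Of 16 apoptosis regulators, 16 immediate early genes and 14 MHC and antigen presentation genes 0 were called by limma. At an unadjusted p under 0.05 in limma 1, 6 and 1 of them passed, where 1895 of all 14217 genes did. That share was larger in the immediate early genes (4 higher, 2 lower) than over all genes, and smaller in the other lists. Of 17 genes of heat and endoplasmic reticulum stress 1 fell, Herpud1, by 0.65 ± 0.16, and not without the surrounding array of animal 10 or 18 (highest adjusted p = 0.174).

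Of 23 growth factors and receptors 1 rose and 2 fell, 3 of 23 against 3.18% of all genes, and the counts were 0 to 1 and 0 to 2 when 1 array was left out. The EGF receptor, Egfr, read 9.92, 11.19, 10.00 and 10.54 in surrounding liver and 8.41 to 9.56 in the foci, all lower, with a change of -0.95 ± 0.20 (adjusted p = 0.00398, and 0.0575 without the surrounding array of animal 7). Igfbp3, which holds insulin-like growth factors in the blood, rose by 1.28 ± 0.27 with overlap, and not without the surrounding array of animal 18 (adjusted p = 0.124). The other gene called was Igf1, given above.

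Annexins, their S100 partners and cytoskeletal genes rose in 7 of 23 and none fell, against 1.81% and 1.36% of all genes (median 0.44). At an unadjusted p under 0.05 in limma 0 were lower. The list had 6 to 8 rises when any single array was left out. Anxa2, an annexin that binds membranes and forms a complex with S100a10, read 6.92, 7.30, 5.90 and 7.66 in surrounding liver and 9.07 to 10.76 in the foci (median 9.91), a change of 3.15 ± 0.30 (8.90-fold, adjusted p = 6.42e-08). S100a10 read 7.36, 7.56, 7.45 and 6.78 against 8.78 to 10.42, a change of 2.39 ± 0.25, so both members of the complex lay apart between the groups. A second probe set of Anxa2 had a change of 0.18. Anxa7 changed by 2.14 ± 0.22, and the beta-tubulins Tubb6 and Tubb2a were 6.74-fold and 4.01-fold higher, where a second probe set of Tubb6 had a change of 0.24.

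Cell contacts were read from single genes. Cdh17, the liver-intestine cadherin, had the largest fall, from 7.61, 10.42, 8.85 and 8.46 in the surrounding liver of animals 10, 14, 18 and 7 to 4.64 to 6.66 in the foci. The groups did not overlap and the change was -2.57 ± 0.47 (5.94-fold, adjusted p = 0.00108). The gap junction proteins Gjb1 and Gjb2, picked after their values were seen, moved in opposite directions. Gjb1, the main connexin of hepatocytes, read 10.35, 10.60, 10.19 and 10.40 against 9.08 to 9.86 and fell by 0.74 ± 0.17. Gjb2 read 7.29, 6.68, 8.06 and 7.62 against 8.63 to 10.14 and rose by 1.62 ± 0.24 (3.06-fold, adjusted p = 9.22e-05). Gjb1 did not pass without the surrounding array of animal 18 or 7 (highest adjusted p = 0.0594).

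Markers were read for the cells each capture could hold. Hepatocyte markers were high in all arrays, with albumin (Alb) at 14.26 to 14.46 in the foci and 14.58, 14.58, 14.44 and 14.46 in surrounding liver, a change of -0.12 ± 0.06 (adjusted p = 0.391). Of 11 hepatocyte markers Apoa1 rose by 0.47 ± 0.11 and Fabp1 fell by 0.63 ± 0.14, Apoa1 not without the surrounding array of animal 18 or 7 and Fabp1 not without that of animal 10 or 7. The median of the 11 was -0.16, 10 changes were below 0, and 7 were lower and 1 higher at an unadjusted p under 0.05 in limma. The count of falls was 0 without the surrounding array of animal 10 or 7, 2 without foci replicate 2, and 3 without foci replicate 5 or adenoma replicate 5. All 13 changes of macrophage markers were below 0, the median was -0.64 and 4 fell, against 1.36% of all genes. Lyz2 fell by 0.80 ± 0.18, Clec4f of Kupffer cells by 0.70 ± 0.20, and C1qb and C1qc by 0.66 ± 0.19 and 0.64 ± 0.17. The mean deviation of the 13 markers lay at -0.44 to 0.22 in the foci and -0.05 to 0.96 in surrounding liver, so the ranges overlapped. None of the 13 was called without the surrounding array of animal 10, and Clec4f and C1qb lost their calls in 13 and 11 of the 18 fits that left out 1 array. In captured tissue, fewer cells of a type and less RNA per cell cannot be told apart.

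Of 19 stellate cell and fibroblast markers 3 rose and none fell, against 1.81% and 1.36% of all genes. Their changes were above 0 in 12 and below in 7, with a median of 0.27. Those that rose were the collagen genes Col3a1, Col1a1 and Col1a2, while the collagen gene Col4a1 did not pass (0.80 ± 0.23, adjusted p = 0.0545). A second probe set of Col4a1 had a change of 1.35, and 1 of its 2 probe sets was called when every probe set was fitted. Col3a1 read 9.46, 9.67, 9.25 and 9.37 in surrounding liver and 9.18 to 11.73 in the foci (median 10.30), overlapping, with a change of 1.04 ± 0.22 (adjusted p = 0.00582). Within animals the difference was 2.04 in animal 18 against 0.37 and 0.88. Col1a1 and Col1a2 had changes of 1.21 ± 0.31 and 1.12 ± 0.31, and a second probe set of Col1a1 had 0.14. Without the surrounding array of animal 18 none of the 19 rose, and without the surrounding array of animal 14, or without foci replicate 7 of animal 7, 1 rose. Col1a2 lost its call in 9 of the 18 fits that left out 1 array. By limma 0 of 13 endothelial, 0 of 9 cholangiocyte, 0 of 16 lymphocyte, 0 of 8 blood cell and 0 of 8 mast cell and neutrophil markers were called, with 0, 2, 2, 1 and 0 past an unadjusted p of 0.05. The part of these other cells in the changes given above was not tested.

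Foci also differed from animal to animal, which the comparison with surrounding liver does not show. A limma F test over the 9 foci alone asked whether lesions of 1 rat resemble each other, and 92 genes were called (0.647%), with 1448 at an unadjusted p under 0.05. Of the 92, 42 were highest in animal 7, 31 in animal 18 and 19 in animal 10. In 52 of them (56.52%) the surrounding arrays of the 3 animals stood in the same order as the foci, against 19.65% of all genes. Between foci and surrounding liver 19 of the 92 were called as well, where 452 of all 14217 genes (3.18%) were. Without foci replicate 8, 57 genes were called.

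Ugt2b, a glucuronosyltransferase, was the leading case. It read 11.92 to 12.38 in the foci of animal 10 and 12.05 to 12.18 in those of animal 7, but 3.79, 3.97 and 4.35 in those of animal 18. The surrounding liver showed the same division, with 12.28 in animal 10 and 12.01 in animal 7 against 3.28 in animal 18 and 3.67 in animal 14. The major histocompatibility gene RT1-T24-4 divided the animals in the same way, with 8.38 to 9.28 in the foci of animals 10 and 7 and 3.88 to 4.29 in animal 18, and with 8.80, 8.95, 3.85 and 5.45 in the surrounding liver of animals 10, 7, 18 and 14. RT1-CE10, another gene of that complex, ran the opposite way, at 10.57 to 11.14 in the foci of animal 18 and 6.83 to 8.11 in the others. Genes of the RT1 complex are many and similar, so 1 probe set may read several of them.

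Alox15, Lcn2 and Ubd, picked for their differences between animals, were highest in the foci of animal 7. Alox15, a lipoxygenase of macrophages and eosinophils, read 9.95, 10.18 and 10.46 in its foci and 10.83 in its surrounding liver, against 4.44 to 6.84 in the other foci and 4.94 to 5.56 in the other surrounding samples. Lcn2, an iron-binding protein of the acute response, read 9.63, 9.88 and 10.44 in the foci and 10.10 in the surrounding liver of animal 7, against 5.51 to 6.78 and 5.61 to 6.39 elsewhere. Ubd, a ubiquitin-like protein that interferon induces, read 9.52 to 9.83 in the foci of animal 7 and 3.73 to 5.24 in the other foci, while the surrounding liver was high in animals 7 (9.18) and 14 (9.12). None of the 3 was called between foci and surrounding liver. The globin gene Hbb followed the animal as well, at 13.11 to 13.22 in the foci of animal 7, 11.77 to 11.87 in animal 10 and 9.80 to 10.17 in animal 18, with 13.45, 11.60 and 11.01 in the matching surrounding liver. The part of blood cells in the other differences between animals was not tested.

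**Figure D4:**
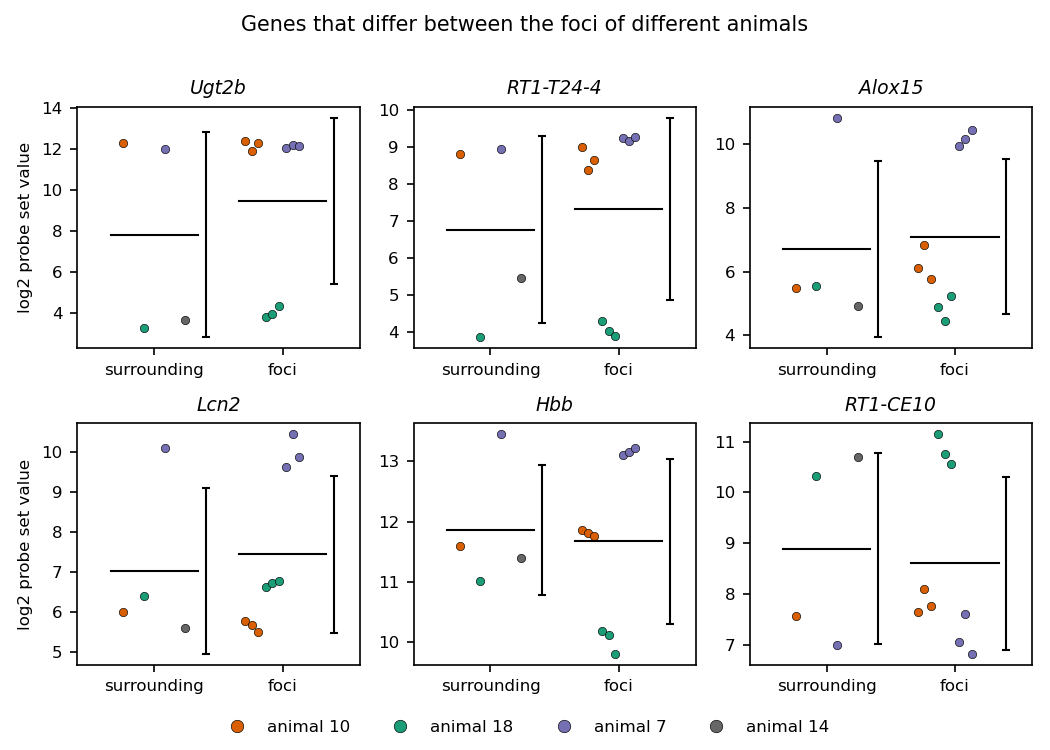
Log2 probe set values of 6 genes that differed between the foci of different animals, in 4 surrounding arrays and 9 foci, coloured by animal, with the group mean (line) and SD (bar). For Ugt2b the foci of an animal lie near its own surrounding liver, with values between 3.28 and 4.35 in all samples of animal 18. For Hbb the foci of animal 18 lie further below its surrounding liver.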

How the data were processed

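RNA of 18 FFPE samples entered the fit: 9 foci, 4 surrounding samples and 5 adenomas. The authors deposited log2 probe set values (31042 probe sets, no missing values), which were used as deposited. Per the labels' protocols the tissue was laser-captured and extracted with the RNeasy FFPE kit. Labelling of FFPE samples, background correction, summarization and normalization are not given in the sources used here.

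Probe sets with 1 symbol in the platform annotation (20826) were kept, 436 with several and 9780 with none left out, and the probe set with the highest mean over the 18 arrays stood for each of 14217 genes. In R 4.3.3, limma 3.58.1 fitted group and animal (12 residual degrees of freedom, intensity trend), and an F test compared animals over the foci alone. The model was tested on simulated data. The animal is a term because the labels give lesions and surrounding samples of 1 rat the same number. Their deviations from group means correlated at a median of 0.0788 within animals (34 pairs) and -0.0903 between them. P-values measure the spread between captured samples, 3 lesions of 1 rat not being separate animals. Adenoma replicate 4, called surrounding tissue in its source name, counted as an adenoma, and 1 alternative omits it.

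Named genes are the markers, the 15 largest rises and falls moving the same way in every animal, the NRF2 members, up to 5 called members per list and direction, the 4 highest markers of each cell type, and the 8 leading genes between animals or by SD over the foci. Ahr, Asl, Ass1, Ccnd1, Cyp1a1 and Sox4 were named outside that rule after their values were seen. Members and lists were chosen with earlier results of these data known.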

Additional observations from a re-analysis of the deposited data

Results flagged for a closer look

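Single arrays far from the rest of their group were sought in 322 sets of values, those of the genes named above and the mean of each list, and 18 were found (about 5% of sets are marked by chance). In the foci, Ggt1 was low at 8.68 in replicate 5 of animal 18 (next 9.61), Cyp2c7 at 12.21 (next 12.81) and Clec4f at 8.80 (next 9.26) in the same lesion, whose mean of the apoptosis regulators was high at 0.28 (next 0.04). Nr1i3 was low at 9.17 in replicate 6 of animal 18 (next 9.73), Cpt1a at 8.45 in replicate 2 of animal 10 (next 9.31) and Igf1 at 9.70 in replicate 1 of animal 10 (next 11.35), and C1qc was high at 9.75 in replicate 8 of animal 7 (next 9.26).

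In surrounding liver, animal 14 was high for Sult1e1 at 12.85 (next 10.89), Sult1c3 at 11.22 (next 10.53), Gclc at 11.38 (next 10.73) and Anxa7 at 7.74 (next 6.92). Animal 7 was high for Alox15 at 10.83 (next 5.56) and Abcc3 at 9.98 (next 9.68). Animal 18 was low for Srxn1 at 5.96 (next 7.83) and animal 10 for Onecut1 at 8.85 (next 10.16). Animal 10 was high for the mean deviation of the quinone and carbonyl reduction genes at -0.44 (next -1.16) and of the aryl hydrocarbon receptor battery at 0.24 (next -0.14).

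The FFPE array titled normal, whose labels also call it surrounding tissue under phenobarbital, entered no comparison. It lay above all 4 surrounding arrays for Anxa2 at 8.06 (next 7.66), Maff at 6.87 (next 6.21) and Ptgr1 at 11.28 (next 10.37), which are 3 of the 15 largest rises. All foci lay above it in 15 of those 15 genes, which were picked for their rise in these foci. Of the 15 largest falls, the normal array lay above all 4 surrounding arrays in 8. The share of all genes for which it did so was not counted, so the 3 and the 8 are descriptions only. In the surrounding arrays the interquartile range, a measure of spread, was 2.56 to 2.99, and in the normal array 3.28. Its mean deviation over all NRF2 targets was -0.51, inside the range of surrounding liver (-1.01 to -0.47). For the NADPH supply genes alone its mean deviation was 0.23, inside the range of the foci (0.09 to 0.59).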

How the results depend on the processing

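With 4 surrounding arrays and 3 animals with both tissues, the count of calls depends on single surrounding arrays. Leaving out 1 array gave 245 to 488 called genes in place of 452 (128 to 280 rose, 77 to 211 fell), and 57 to 114 genes between animals in place of 92. It gave 184 to 281 genes with all foci above surrounding liver in place of 171, and 185 to 351 with all foci below in place of 172. Counts of the latter kind can only stay or rise when an array is left out, so their direction was fixed in advance. Without animal 10, 18 or 7, 202, 260 or 247 genes were called (135, 127 or 163 rose, 67, 133 or 84 fell). Without the intensity trend 233 were called (153 rose, 80 fell) and 44 between animals, and the mean of a gene's probe sets gave 60 between animals. Why these settings changed the counts was not tested beyond the smaller number of samples in some. With no replicate block, so no animal term, 173 genes rose and 139 fell. The mean of the foci per animal, with the animal as block, gave 210 and 150, and the animal as a random block 203 and 168. Fits of foci and surrounding arrays only, quantile normalization, median centring, probe set means, array weights and removal of the genes with the lowest means (10663 kept) kept the totals between 378 and 494. Of 118 called genes that were followed, none changed sign in any of the 31 alternatives and 55 kept their call in all of them. Ahr, Asl, Ass1, Ccnd1, Cyp1a1 and Sox4 were not followed.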
